A study of Homo sapiens with 10 samples.

Results

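The matrix metalloproteinase (MMP) and tissue inhibitor of metalloproteinases (TIMP) genes described here were 10 genes chosen by name, 7 proteinases (*MMP1*, *MMP2*, *MMP7*, *MMP9*, *MMP10*, *MMP14* and *MMP15*) and 3 inhibitors (*TIMP1*, *TIMP2* and *TIMP3*), among the 28265 gene symbols of the deposited tables. All 10 were found and all 10 passed the filter on low counts. They were followed through 10 bulk RNA-Seq libraries, 2 at each of days 16, 23, 31, 38 and 45 of a protocol in which human embryonic stem cells became thyroid organoids. Every library was made from sorted NKX2-1 GFP+ cells of ESIBIe003-A-6, a recombinant line derived from the established hESC line HES3 with GFP knocked into 1 allele of *NKX2-1*, in which both *NKX2-1* and *PAX8* can be induced with doxycycline, and each sample pooled several wells of that single line. Libraries of days 16, 23 and 31 are labelled as grown with cAMP, those of day 38 with hrTSH and dexamethasone, and those of day 45 with hrTSH and SB431542, an inhibitor of the TGFβ type I receptor kinase. By the study's methods doxycycline was given to all of them early in the protocol, the cAMP analogue was first added at day 16, and dexamethasone was still present at day 45, which the labels do not say. The description of the protocol puts the start of SB431542 in one passage at day 38 and in another on the day before, so whether the day 38 cells had met it is not settled. That description dates the switch from cAMP to hrTSH and dexamethasone shortly before day 31. The day 31 libraries are labelled with cAMP, so whether their cells had met the new medium is not settled. Among the libraries used here each medium has its own days, so medium and time in culture cannot be told apart. Libraries held between 7247268 and 10333933 counts in all.

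MMPs are zinc-dependent enzymes that cut collagens, laminins and other proteins outside the cell. They are made as inactive precursors, and TIMPs block the active enzyme by binding in its catalytic site. Around epithelial follicles such as those of the thyroid, the balance of the 2 families helps set how fast basement membrane and stroma are remodelled. The transcript levels described here measure neither secretion nor activation of the enzymes.

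*MMP7*, *MMP10* and *MMP1* lie in the MMP cluster of chromosome 11, where 9 MMP genes, all on the minus strand, occupy 102520508 to 102955732 (GRCh38), a span of 435225 bp. *MMP7* takes 102520508 to 102530750, *MMP10* takes 102770502 to 102780628 and *MMP1* takes 102789401 to 102798160. The other members are scattered over the genome: *MMP14* on chromosome 14 (22836560 to 22849041, plus strand), *MMP2* and *MMP15* on chromosome 16 (55389700 to 55506691 and 58025754 to 58046901, plus strand), *TIMP2* on chromosome 17 (78852977 to 78925387, minus strand), *MMP9* on chromosome 20 (46008908 to 46016561, plus strand), *TIMP3* on chromosome 22 (32801705 to 32863041, plus strand) and *TIMP1* on chromosome X (47582408 to 47586789, plus strand). *TIMP1* and *TIMP3* sit inside *SYN1* and *SYN3*, synapsin genes read on the opposite strand, with 0 bp of shared exon.

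RefSeq promoter windows (GRCh38.p14) were at hand for 6 of the 10 genes: *MMP7*, *MMP10*, *MMP14*, *MMP15*, *TIMP1* and *TIMP3*. The 250 bases before each start were searched on both strands for TGANTCA, for TATAAA and for TGACGTCA, the full cAMP response element. TGANTCA is a loose form of the site bound by AP-1 (*FOS* and *JUN* dimers), with any base in the middle. Its match reads TGAGTCA in *MMP7* and TGAATCA in *MMP10*. TGANTCA was found in *MMP7* and *MMP10*, at 67 bases before the start in both, against 2308 of all 35116 promoters (6.57%). TATAAA was found in the same pair, at 30 and 31 bases, against 10.7% of all promoters, and TGACGTCA was in 0 of the 6 windows, against 1.65%. The 120 bases that end 11 bases before the start are shown for *MMP7* and *MMP10*, which hold both motifs, and for *MMP14* and *TIMP3* as members without a match, 5′ to 3′ on the gene's strand, with TGANTCA and TATAAA in capitals. A match is a description of letters and not of binding.
MMP7 (chr11:102530758-102530877, minus strand): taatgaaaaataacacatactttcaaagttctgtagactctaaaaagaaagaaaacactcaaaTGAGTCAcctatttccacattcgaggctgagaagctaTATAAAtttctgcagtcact
MMP10 (chr11:102780639-102780758, minus strand): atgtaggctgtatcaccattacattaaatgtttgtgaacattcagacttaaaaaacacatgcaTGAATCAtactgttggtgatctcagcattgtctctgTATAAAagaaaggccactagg
MMP14 (chr14:22836455-22836574, plus strand): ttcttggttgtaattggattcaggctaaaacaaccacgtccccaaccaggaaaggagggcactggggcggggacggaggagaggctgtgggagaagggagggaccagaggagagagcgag
TIMP3 (chr22:32801575-32801694, plus strand): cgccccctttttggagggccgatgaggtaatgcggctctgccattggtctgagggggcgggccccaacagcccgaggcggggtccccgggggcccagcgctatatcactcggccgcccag

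The sorted cells carried thyroid transcripts throughout. The 7 thyroid follicular cell markers gave a sum of 1850 and 1455 CPM (counts per 1000000 counts of the scaled library) in the day 16 libraries and of 9294 and 8807 CPM in those of day 45, and thyroglobulin (*TG*) alone made 7960 and 7522 CPM of the latter. Without *TG*, a split chosen after seeing the data, the other 6 summed to 1839.8 and 1443 CPM at day 16 and 1334 and 1285 at day 45, and *FOXE1*, *NKX2-1* and *PAX8*, thyroid transcription factors, were lower at day 45 than at day 16, by log2 fold changes of -1.86, -0.48 and -0.33 (edgeR adjusted p = 6.09e-13, 0.0202 and 0.0453). At day 16 *TG* was at 10.6 and 11.7 CPM, and in the libraries of days 23 and 31 it was at 178 to 211 CPM. *PAX8* lay between 477 and 727 CPM in every library. Replicates of a day correlated at r = 0.940 to 0.970 on the log2 CPM scale over the tested genes, against 0.853 to 0.942 between days, so no library was set aside. In bulk samples of this kind, fewer cells of a type and less RNA per cell cannot be told apart.

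Across the 5 days, 7 of the 10 genes differed between some days (edgeR's quasi-likelihood test, adjusted p under 0.05), against 36.3% of the 21014 genes tested. *MMP9*, *MMP10* and *MMP14* did not pass that test (adjusted p = 0.125, 0.0912 and 0.206). From day 16 to day 23, 3 members were called against a background of 10.9%: *TIMP3* and *TIMP1* rose (5.60% of all genes did) and *MMP1* fell (5.33%). From day 23 to day 31, 4 were called against 2.25%: *MMP1* and *TIMP3* rose (1.58% of all genes) and *MMP2* and *TIMP2* fell (0.666%). From day 31 to day 38, 6 were called, all higher (*MMP7*, *MMP10*, *TIMP1*, *MMP15*, *TIMP3* and *MMP2*), against 15.0% called in either direction and 8.80% higher. Over that step the labels change from cAMP to hrTSH and dexamethasone. The week to the SB431542 libraries, day 38 to day 45, had 2 calls, *MMP1* and *TIMP3*, both higher, against 11.2% called and 4.85% higher. Day 45 stood above day 16 for 5 members (*MMP7*, *MMP1*, *TIMP3*, *TIMP1* and *MMP15*) and below it for 0, against 24.6% called and 12.9% called higher. The median log2 fold change over the 10 members was 0.14, -0.07, 0.87 and 0.08 for the 4 weekly steps, beside -0.02, 0.00, 0.00 and -0.02 over all genes tested. Without scaling factors the median of all genes for the step from day 31 to day 38 moved to -0.20, and the members called there were 5, as with upper-quartile factors, with *MMP2* the 1 lost in both (adjusted p = 0.195 and 0.0502).

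**Figure D1:**
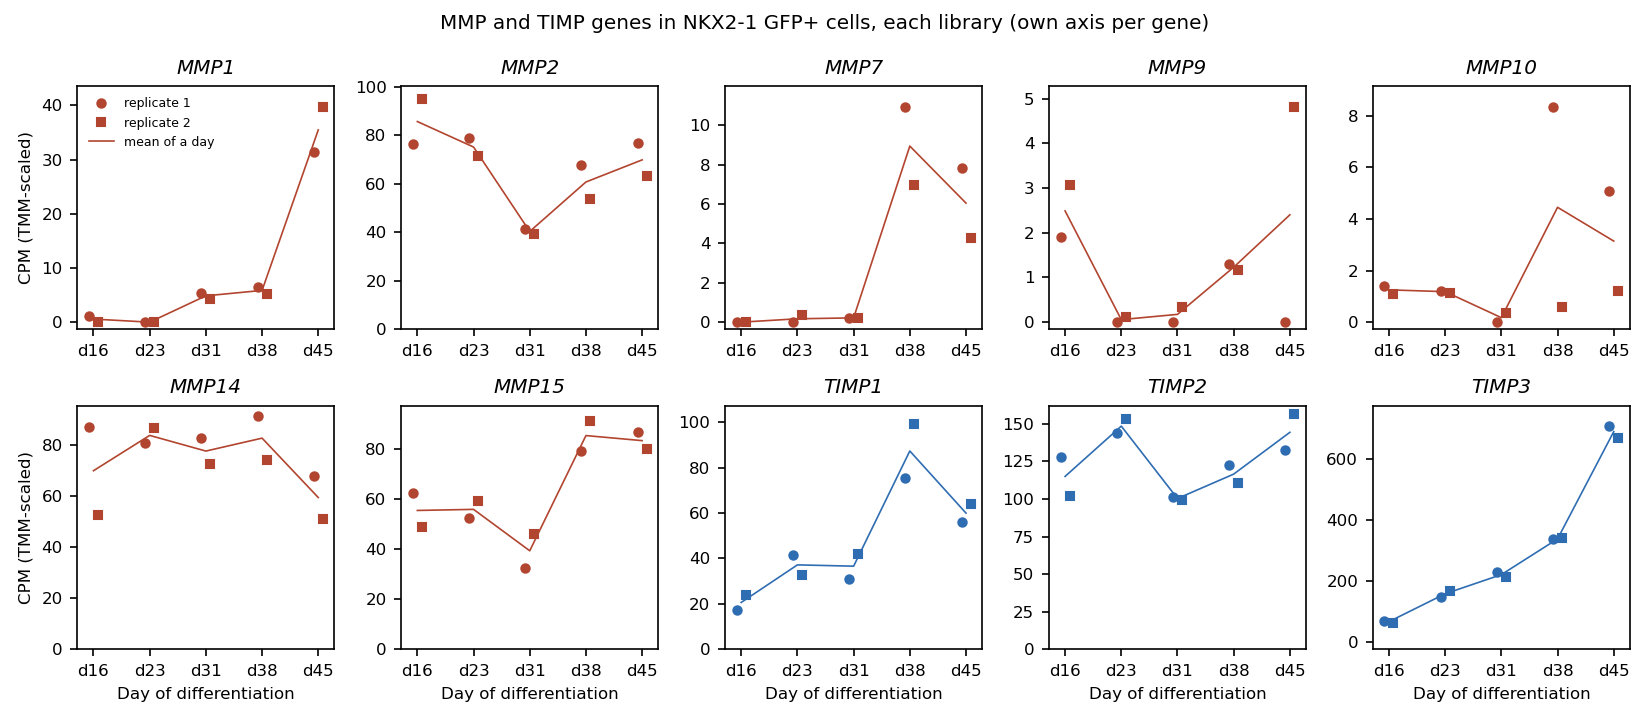
Level of each MMP (red) and TIMP (blue) gene in every library, in CPM on TMM-scaled library sizes (y axis, its own range for each gene), by day of differentiation (x axis). Circles are replicate 1, squares replicate 2 and the line joins the means of 2 libraries. TIMP3 climbs at each step, MMP1 is highest at day 45, MMP7 appears at day 38, and the 2 libraries of a day are far apart for MMP10 at day 38 and for MMP9 at day 45.

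**Figure D2:**
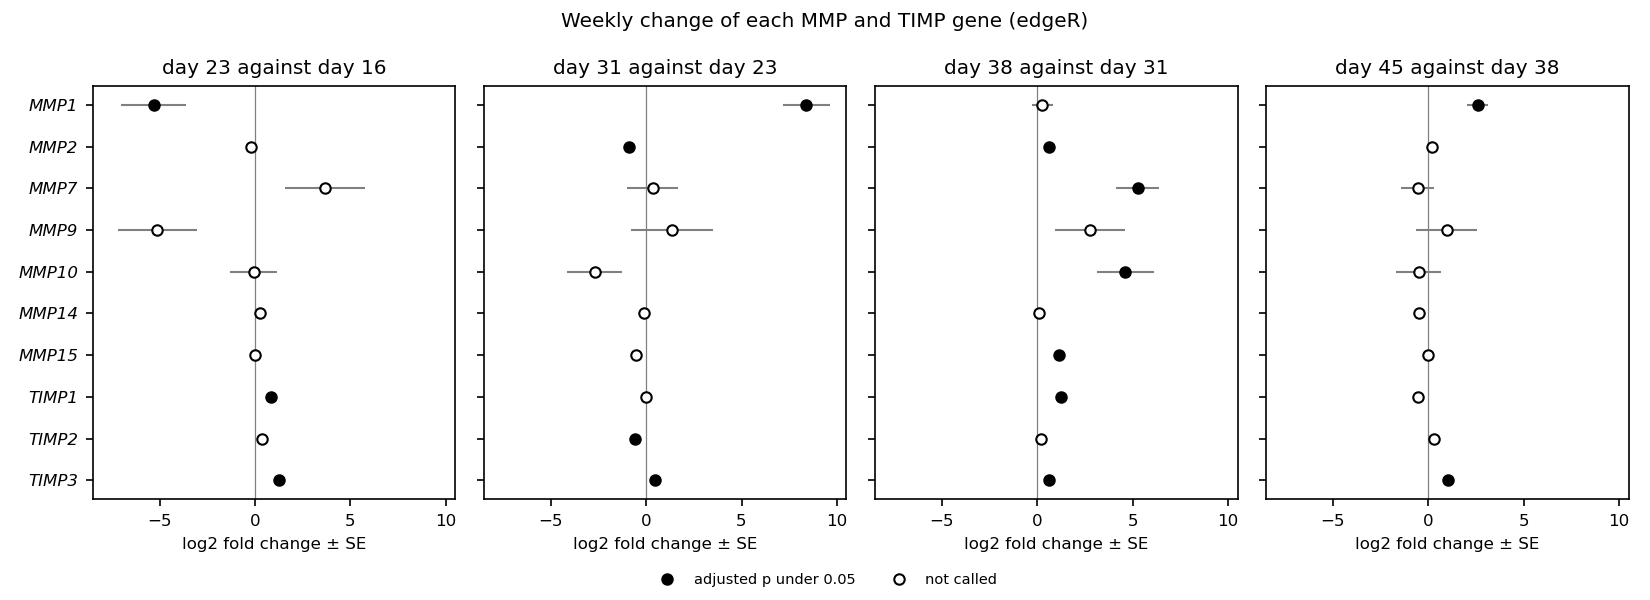
Log2 fold change (x axis) of each member (y axis) over the 4 weekly steps, with its standard error as a bar. Filled points passed an adjusted p of 0.05 and open points did not. The 6 filled points of day 38 against day 31 all lie right of 0, and the widest bars belong to genes with few counts (MMP1 at the first 2 steps, MMP7, MMP9 and MMP10).

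*MMP1*, the interstitial collagenase that opens the triple helix of fibrillar collagens, rose in 2 separate weeks. It was at 1.14 and 0 CPM (day 16), 0 and 0 (day 23), 5.42 and 4.30 (day 31), 6.48 and 5.24 (day 38) and 31.3 and 39.6 (day 45). Both day 45 libraries stood above all 8 earlier ones, and both day 31 libraries above all 4 earlier ones. The step from day 23 to day 31 was at least 14.4-fold against a floor of 3 counts per library (adjusted p = 3.79e-05). Days 31 and 38 overlapped (log2 fold change 0.27, SE 0.54, adjusted p = 0.824). *MMP1* then rose by 2.60 on the log2 scale to day 45 (SE 0.55, adjusted p = 0.00105). Leaving out any 1 of the 4 libraries compared kept that change between 2.42 and 2.76. Day 45 held 579 counts against 9 at day 16, a ratio of 64.2 per scaled library (95% counting interval 33.6 to 141, which covers counting error only). All 9 counts lay in 1 day 16 library, and leaving out 1 library at a time put the fitted log2 fold change between 4.94 and 11.26. The fall from day 16 to day 23 (adjusted p = 0.0365) rested on 9 counts in 1 of the 2 day 16 libraries, and the days overlapped. Leaving out that library put the log2 change at 0, and without either day 23 library the call was lost (adjusted p = 0.165 and 0.169). Exons of *WTAPP1*, on the opposite strand and with 2 to 56 counts in these libraries, overlap 8.14% of the *MMP1* exons.

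*MMP7*, matrilysin, a small secreted enzyme made mainly by glandular epithelia, was close to absent up to and including day 31. Its counts were 0 and 0 (day 16), 0 and 3 (day 23), 2 and 2 (day 31), 101 and 60 (day 38) and 54 and 39 (day 45). All 4 libraries of days 38 and 45 stood above all 6 earlier ones. The rise from day 31 to day 38, from 0.219 ± 0.0198 to 8.95 ± 2.77 CPM (SD, n = 2), was 5.27 on the log2 scale (SE 1.13, adjusted p = 0.000944), with a count ratio of 41.4 (95% interval 15.9 to 154). Day 45 and day 38 overlapped (log2 fold change -0.57, SE 0.87, adjusted p = 0.774). Against day 16, day 45 was at least 16.1-fold higher (adjusted p = 0.000102).

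*MMP10*, stromelysin-2, which cuts proteoglycans and laminin and can activate other pro-MMPs, depended on single libraries. It was at 1.39 and 1.11 CPM (day 16), 1.22 and 1.14 (day 23), 0 and 0.349 (day 31), 8.31 and 0.582 (day 38) and 5.08 and 1.20 (day 45). Replicate 1 was the higher library at both late days, and replicate 2 of day 38 lay below both day 16 libraries. The call from day 31 to day 38 (log2 fold change 4.61, SE 1.49, adjusted p = 0.0311) was lost without replicate 1 of day 38 (1.69, adjusted p = 0.758) and without replicate 1 of day 31 (3.62, adjusted p = 0.223). With the replicate number as a block, the call from day 31 to day 38 was lost too. A 50-base comparison of transcripts found 3.45% of *MMP10* in common with *MMP3* of the same cluster, so a small share of its reads could be split between them. *MMP10* was not called between any other pair of days compared.

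The gelatinases, named for their action on denatured collagen and type IV collagen, are *MMP2* and *MMP9*, and no test compared their courses. *MMP2*, gelatinase A, was at 76.6 and 94.8 CPM (day 16), 78.8 and 71.5 (day 23), 41.3 and 39.3 (day 31), 67.6 and 53.9 (day 38) and 76.6 and 63.1 (day 45). Both day 31 libraries lay below the other 8. *MMP2* fell by 0.90 on the log2 scale from day 23 to day 31 (SE 0.19, adjusted p = 0.00455) and rose by 0.59 to day 38 (SE 0.19, adjusted p = 0.0302). The first call was lost without replicate 1 of day 23 (adjusted p = 0.0825) and without either day 31 library (0.0658 and 0.0698), and the second without either day 31 library or replicate 1 of day 38 (0.111, 0.159 and 0.383) and when TMM factors were left out (log2 fold change 0.37, adjusted p = 0.195). Day 45 and day 16 overlapped (log2 fold change -0.30, SE 0.19, adjusted p = 0.277).

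*MMP9*, gelatinase B, an enzyme abundant in neutrophils and macrophages, stayed at the edge of detection. Its counts were 15 and 25 (day 16), 0 and 1 (day 23), 0 and 3 (day 31), 12 and 10 (day 38) and 0 and 44 (day 45). Both day 16 libraries stood above those of days 23 and 31, while of the day 45 libraries 1 was among the 3 libraries at 0 counts and the other was the highest of all 10. No step passed the test in edgeR or DESeq2, and 1 had an unadjusted p under 0.05 in edgeR: from day 16 to day 23 the log2 fold change was -5.14 (SE 2.07, adjusted p = 0.114), and from day 31 to day 38 it was 2.76 (SE 1.82, adjusted p = 0.367). Exons of *SLC12A5-AS1*, an antisense RNA with 0 to 7 counts in these libraries, overlap 18.4% of the *MMP9* exons, and the strand setting of the counting is not given in the sources used here.

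Of the membrane-anchored enzymes, 1 was called in none of the comparisons and the other rose at day 38. *MMP14*, or MT1-MMP, which activates pro-MMP2 at the cell surface together with *TIMP2*, was at 87.2 and 52.8 CPM (day 16), 80.9 and 86.9 (day 23), 83.0 and 72.5 (day 31), 91.5 and 74.2 (day 38) and 67.8 and 51.2 (day 45). The day 45 libraries lay below those of day 38, by -0.48 on the log2 scale, without passing the test (SE 0.20, adjusted p = 0.135), and the 2 day 16 libraries spanned nearly the whole range of the others. *MMP14* was called in 0 of the 5 comparisons by edgeR (unadjusted p under 0.05 in 1, day 45 against day 38) and in 0 by DESeq2. A call appeared from day 16 to day 23 without replicate 1 of day 16 (0.68, adjusted p = 0.0383) and from day 16 to day 45 without replicate 2 of day 16 (-0.56, adjusted p = 0.0479).

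*MMP15*, or MT2-MMP, a membrane enzyme typical of epithelia, was at 62.2 and 48.6 CPM (day 16), 52.4 and 59.3 (day 23), 32.5 and 46.1 (day 31), 79.4 and 91.4 (day 38) and 86.8 and 79.9 (day 45). All 4 libraries of days 38 and 45 lay above all 6 earlier ones. It rose by 1.12 on the log2 scale from day 31 to day 38 (SE 0.20, adjusted p = 7.56e-05). Leaving out any 1 of the 4 libraries compared kept this rise between 0.89 and 1.38. Between days 38 and 45 it moved by -0.03 (SE 0.19, adjusted p = 0.959). The rise over day 16 at day 45, 0.59 (SE 0.20, adjusted p = 0.025), was lost without replicate 2 of day 16 (adjusted p = 0.199), without either day 45 library (0.13 and 0.0556) and without TMM factors (0.0753).

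*TIMP3*, the inhibitor that binds to the extracellular matrix and also blocks *ADAM17* and several ADAMTS enzymes, rose at every step and ended as the most abundant member. It was at 69.8 and 63.9 CPM (day 16), 148 and 169 (day 23), 229.5 and 213 (day 31), 337 and 341 (day 38) and 712 and 671 (day 45). No 2 days overlapped. The log2 fold changes were 1.25 (SE 0.13, adjusted p = 1.01e-08), 0.48 (SE 0.13, adjusted p = 0.0287), 0.61 (SE 0.12, adjusted p = 0.00046) and 1.03 (SE 0.12, adjusted p = 2.03e-07), and the change from day 16 to day 45 was 3.37 (SE 0.14, adjusted p = 1.14e-19). Only the second step, from day 23 to day 31, lost its call when 1 library was left out, and it did so without any 1 of its 4 libraries (adjusted p = 0.0832 to 0.36). The host gene *SYN3* moved the other way, falling by 1.39 on the log2 scale from day 16 to day 45 (SE 0.45, adjusted p = 0.0199), with 37 to 158 counts a library.

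*TIMP1*, a soluble inhibitor that acts weakly on the membrane enzymes and binds pro-MMP9, peaked at day 38. It was at 17.4 and 23.8 CPM (day 16), 41.7 and 32.6 (day 23), 31.1 and 42.0 (day 31), 75.6 and 99.1 (day 38) and 56.0 and 63.9 (day 45). Days 23 and 31 overlapped, and every other pair of neighbouring days was apart. *TIMP1* rose from day 16 to day 23 by 0.85 on the log2 scale (SE 0.23, adjusted p = 0.0136) and from day 31 to day 38 by 1.26 (SE 0.23, adjusted p = 9.38e-05). The change from day 38 to day 45, -0.54 (SE 0.22, adjusted p = 0.124), did not pass, though day 45 was still above day 16 by 1.54 (SE 0.24, adjusted p = 3.32e-06). The first rise was lost without replicate 1 of day 16 or of day 23 (adjusted p = 0.127 and 0.176) and with only the 4 libraries compared (0.85, adjusted p = 0.071).

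*TIMP2*, which both inhibits MMPs and carries pro-MMP2 to *MMP14*, held the narrowest range of the 3 inhibitors. An opposite-strand RNA overlaps 5.91% of its exons and *CEP295NL*, with 33 to 153 counts, 3.61%. It was at 127.9 and 102 CPM (day 16), 144 and 153 (day 23), 102 and 99.1 (day 31), 123 and 110.5 (day 38) and 132 and 156 (day 45). Its single call was a fall by 0.57 on the log2 scale from day 23 to day 31 (SE 0.15, adjusted p = 0.0365), in the same week as that of *MMP2*. This call was lost without any 1 of its 4 libraries (adjusted p = 0.137 to 0.298) and without TMM factors (-0.54, adjusted p = 0.054). Day 45 against day 16 gave 0.33 (SE 0.15, adjusted p = 0.119), and this passed without replicate 1 of day 16 (adjusted p = 0.0323), as did the step from day 16 to day 23 (0.0282).

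To compare levels between genes, CPM were divided by exon length, the union of all exons of a gene. The order of genes and the overlaps below hold for that length only. *TIMP2* has 6209 bp of exon union against 3652 in its longest coding transcript, and *MMP2* 4706 against 3514. *TIMP3* has 4597 in both, so the shorter lengths would raise *TIMP2* against it. At day 16 the 6 abundant members lay close together, from *TIMP2* at 18.5 ± 2.93 CPM per kilobase down through *MMP2*, *MMP14*, *TIMP3* and *TIMP1* to *MMP15* at 13.1 ± 2.28 (SD, n = 2), and the libraries of each neighbouring pair in that order overlapped. By day 45 *TIMP3* stood alone at 150.4 ± 6.17 CPM per kilobase, followed by *TIMP1* at 41.5 ± 3.84, *TIMP2* at 23.3 ± 2.72 and *MMP15* at 19.7 ± 1.15, with no overlap between these neighbours. *MMP2* (14.8 ± 2.03), *MMP1* (12.96 ± 2.14) and *MMP14* (12.9 ± 2.53) came next and overlapped, and *MMP7*, *MMP10* and *MMP9* stayed at or below 2.61 CPM per kilobase on average.

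Summed per kilobase, the 3 TIMPs were level with the 7 MMPs at day 16 and above them in every library from day 23 on. The TIMP sum was 47.3 ± 0.719, 84.1 ± 0.190, 89.6 ± 2.56, 153 ± 10.6 and 215 ± 0.389 CPM per kilobase over the 5 days, and the MMP sum 48.4 ± 4.85, 48.1 ± 1.09, 36.7 ± 0.312, 60.0 ± 7.36 and 65.8 ± 4.77. The TIMP-to-MMP ratio of single libraries was 0.922 and 1.04 (day 16), 1.78 and 1.72 (day 23), 2.41 and 2.47 (day 31), 2.23 and 2.92 (day 38) and 3.11 and 3.45 (day 45). Both day 45 libraries were above all others and both day 16 libraries below all others, while days 31 and 38 overlapped. *TIMP3* made up 30.7 ± 1.47% of the TIMP sum at day 16 and 69.9 ± 2.99% at day 45. The composition of the MMP sum shifted too: *MMP1*, *MMP7* and *MMP10* together made 1.87 ± 0.659% of it at day 16, 13.8 ± 6.01% at day 38 and 26.4 ± 1.14% at day 45. These sums are given as descriptions, with no test. They cover the members only, so the ratio is that of the chosen genes and not of the whole families. The 17 other MMP and TIMP symbols listed below summed to 119 and 107 CPM at day 16, before division by length. At day 45 they summed to 90.4 and 99.0 CPM.

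**Figure D3:**
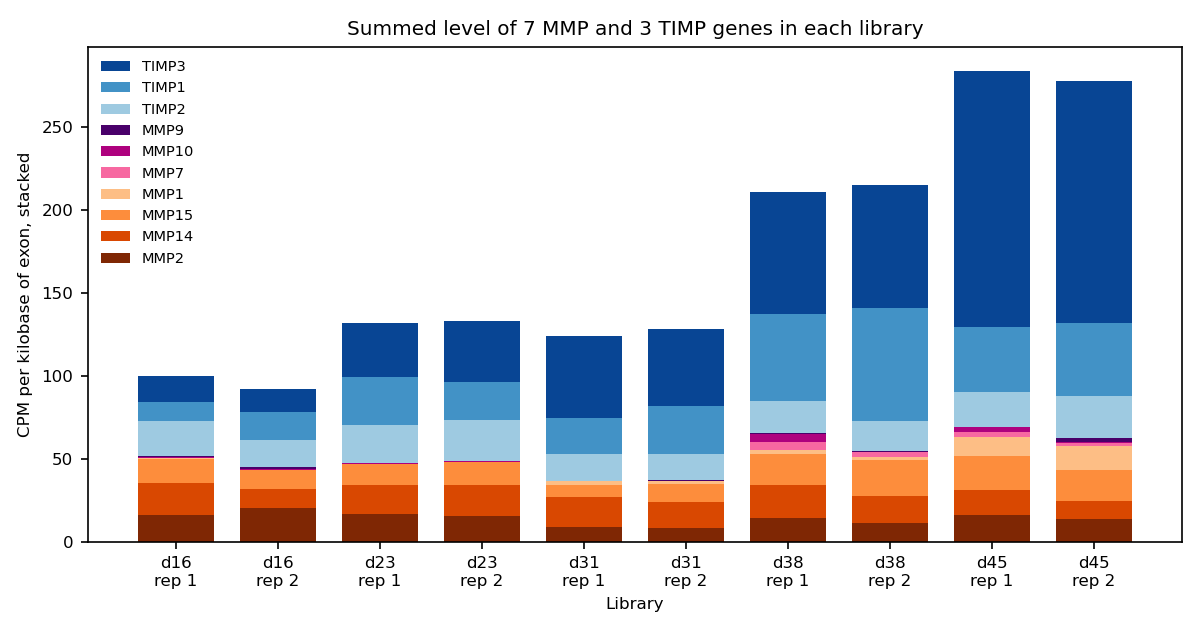
Stacked level of the 7 MMP (reds and purples) and 3 TIMP (blues) genes in each library, in CPM per kilobase of exon (y axis), for the 10 libraries (x axis). The blue part grows from 47.8 and 46.8 in the day 16 libraries to 215 in both day 45 libraries, mostly through TIMP3, while the MMP part stays between 36.5 and 69.2.

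Of the 17 other MMP and TIMP symbols listed beside the members, 12 had enough counts to test. *MMP16*, a membrane enzyme, was at 91.1 and 83.3 CPM at day 38 and at 35.8 and 46.2 at day 45, a fall by 1.08 on the log2 scale (SE 0.18, adjusted p = 5.74e-05). It was the most abundant of this group in every library. *MMP17*, a membrane enzyme anchored by a lipid tail, was at 3.17 and 0.492 CPM at day 16 and at 20.0 and 12.3 at day 45, a rise by 3.14 (SE 0.80, adjusted p = 0.00284). *MMP25*, of the same lipid-anchored kind, rose from 1.19 and 2.91 CPM at day 38 to 11.5 and 10.7 at day 45, by 2.43 (SE 0.82, adjusted p = 0.0491). *MMP8* and *MMP27* had 0 counts in all 10 libraries, where 3 counts correspond to 0.307 to 0.435 CPM. The calls in this group numbered 1, 0, 1 and 2 of 12 over the 4 steps, where 10.9, 2.25, 15.0 and 11.2% of all genes were called.

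Among 14 genes that control MMPs before and at the cell surface, 7 rose and 2 fell from day 31 to day 38, the step with the most calls over all genes too (15.0%), with a median log2 fold change of 0.65. *PCSK6*, a proprotein convertase, rose from 3.48 and 4.42 to 57.7 and 55.6 CPM (log2 fold change 3.84, SE 0.37, adjusted p = 5.99e-10). *PLAU*, the plasminogen activator urokinase, rose from 6.55 and 0.931 to 22.7 and 26.0 CPM (2.67, SE 0.57, adjusted p = 0.000875). *CD44*, a hyaluronan receptor that docks *MMP7* and *MMP9* on the cell, fell by 1.78 (SE 0.13, adjusted p = 1.26e-12), from 425 and 408 to 115 and 128 CPM, and *FURIN*, the convertase that activates *MMP14*, fell by 0.51 (SE 0.18, adjusted p = 0.0459). Over the first week 5 rose and 1 fell, over the second *A2M*, a broad protease trap, alone rose (1.65, SE 0.33, adjusted p = 0.00213), and from day 38 to day 45 *CD44* alone was called, a fall by 0.58 (SE 0.13, adjusted p = 0.0022), beside 10.9, 2.25 and 11.2% of all genes called in those weeks. *RECK*, a membrane-bound inhibitor of *MMP2*, *MMP9* and *MMP14*, fell by 1.63 between day 16 and day 45 (SE 0.30, adjusted p = 6.48e-05).

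Among 16 ADAM and ADAMTS proteases, which *TIMP3* can inhibit in part, 2, 1, 1 and 2 were called over the 4 steps, beside 10.9, 2.25, 15.0 and 11.2% of all genes. *ADAM10*, a sheddase and the most abundant of them, rose by 0.87 on the log2 scale from day 31 to day 38 (SE 0.12, adjusted p = 1.83e-06). *ADAMTS1*, a versican-cutting protease, rose by 1.13 from day 38 to day 45 (SE 0.15, adjusted p = 8.04e-07), while *ADAMTS10* fell by 1.04 (SE 0.28, adjusted p = 0.0115).

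The proteins that MMPs cut were transcribed at far higher levels than the enzymes. The 16 substrate genes summed to 6851 and 6495 CPM (day 16), 11154 and 10893 (day 23), 9778 and 10567 (day 31), 11555 and 11362 (day 38) and 9851 and 8885 (day 45), with fibronectin (*FN1*) the most abundant. From day 16 to day 23, 4 rose and 7 fell, beside 10.9% of all genes called, with *NID1* lower by -2.21, *LAMB1* by -1.80, *COL4A2* by -1.51 and *COL4A1* by -1.16 on the log2 scale (adjusted p = 5.25e-09, 1.53e-12, 4.02e-09 and 1.6e-07), and from day 23 to day 31 *COL4A2* alone was called (-0.78, adjusted p = 0.0021), beside 2.25%. From day 31 to day 38, 10 rose and 2 fell (median log2 fold change 1.17), beside 15.0% of all genes called. The basement membrane collagens *COL4A1* and *COL4A2* rose by 2.92 (SE 0.14, adjusted p = 2.96e-17) and 2.76 (SE 0.16, adjusted p = 1.68e-15), and the fibrillar *COL1A2* by 2.67 (SE 0.14, adjusted p = 2.63e-16), whereas *FN1* fell by 0.74 (SE 0.09, adjusted p = 2.55e-07). *COL4A2* at day 45 was not called against day 16 (-0.09, adjusted p = 0.728). From day 38 to day 45, 2 rose and 5 fell, beside 11.2% of all genes called and 4.85% called higher. Tenascin C (*TNC*) went from 173 and 173 to 26.4 and 41.5 CPM, a fall by 2.34 (SE 0.35, adjusted p = 8.99e-06), *COL4A1* fell by 0.69 (SE 0.13, adjusted p = 0.000301), and *COL7A1*, the anchoring fibril collagen, rose by 1.05 (SE 0.26, adjusted p = 0.00474).

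AP-1, ETS and NF-kB factors are known to act on MMP promoters. Of 14 such genes, 6 rose and 2 fell from day 38 to day 45, the week of the second rise of *MMP1*, beside 11.2% of all genes called and 4.85% called higher. *FOSL1*, a *FOS* family member, was at 5.32 and 4.92 CPM (day 16), 0 and 1.71 (day 23), 3.79 and 1.86 (day 31), 3.24 and 2.79 (day 38) and 124 and 107 (day 45), a rise in the last step by 5.25 on the log2 scale (SE 0.44, adjusted p = 8.93e-11). *NFKB1* rose by 2.34 (SE 0.19, adjusted p = 7.11e-11) to 170 and 203 CPM, and *ETS1* by 1.93 (SE 0.31, adjusted p = 2.38e-05) to 80.2 and 71.2 CPM. *FOS* itself fell by 2.02 (SE 0.11, adjusted p = 5.72e-15), from 1518 and 1401 to 382 and 338 CPM, and *JUN* fell by 0.47 (SE 0.11, adjusted p = 0.00242). Among the 6 members with a promoter window above, *MMP7* and *MMP10* held a TGANTCA match and were not called in that step. *MMP1*, which was called, had no window to search. The counts for the 3 earlier steps were 3 up and 2 down, 4 up and 0 down, and 1 up and 2 down, beside 10.9, 2.25 and 15.0% of all genes. Any part of these factors in the MMP levels was not tested.

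**Figure D4:**
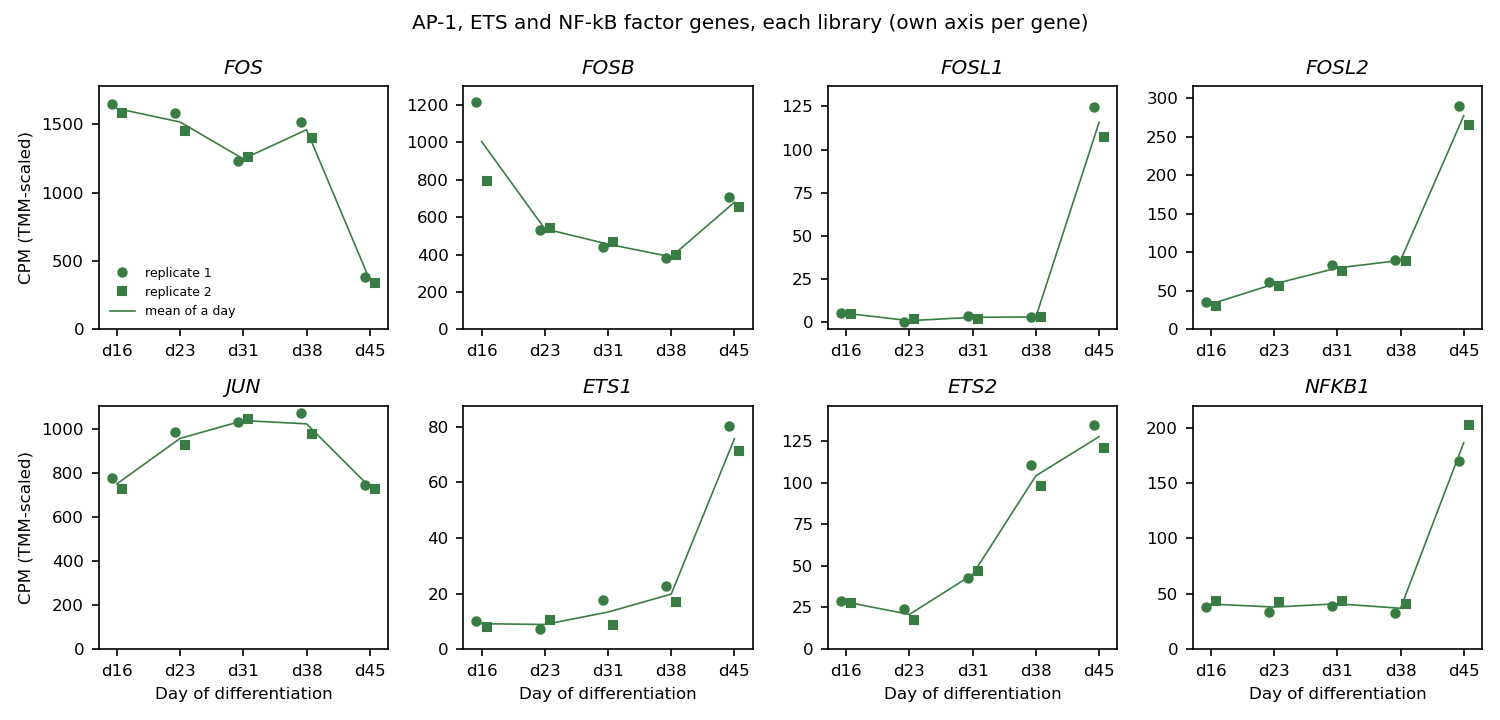
Level of 8 AP-1, ETS and NF-kB factor genes in every library, in CPM (y axis, its own range for each gene), by day of differentiation (x axis), with circles for replicate 1, squares for replicate 2 and a line through the day means. FOSL1, FOSL2, ETS1 and NFKB1 are highest in both day 45 libraries, and FOS is lowest there; FOSL2, FOSB, ETS2 and others outside the text were chosen for display after their values were seen.

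Markers of cells other than thyroid follicular cells moved over the same days. The 6 fibroblast markers summed to 308 and 383 CPM (day 31), 1279 and 1281 (day 38) and 1353 and 1139 (day 45), led by *COL1A2* (1060 and 883 CPM at day 45), which is also on the substrate list, while at day 45 *PRRX1* was at 9.43 and 7.42 CPM and *TWIST1* at 3.92 and 1.53. Without *COL1A2*, a split chosen after seeing the data, the other 5 summed to 154 and 173 CPM (day 31), 128 and 118 (day 38) and 292 and 256 (day 45), so the step at day 38 was that of *COL1A2*. In the step from day 31 to day 38, 2 of the 6 rose and *LUM* fell by 1.23 on the log2 scale (SE 0.18, adjusted p = 2.8e-06), and in the step to day 45, 3 rose and 0 fell (*DCN* by 1.36 to 145 and 115 CPM, *PDGFRA* by 1.25 to 53.4 and 51.8, *LUM* by 0.94 to 80.7 and 80.1, with adjusted p = 0.00041, 0.00636 and 0.000279), beside 15.0 and 11.2% of all genes called (8.80 and 4.85% higher). The 5 cardiovascular cell markers, led by *MYH6*, summed to 31.8 and 28.5 CPM at day 31 and to 242 and 225 at day 38, with 4 of 5 called higher, against 8.80% of all genes. The 4 goblet cell markers went from 49.995 and 36.6 CPM at day 38, led by *MUC5AC* (29.7 and 21.9), to 105.4 and 56.6 at day 45, led by *MUC5B* (96.5 and 47.4), while *MUC5AC* fell by 4.30 on the log2 scale (SE 0.73, adjusted p = 6.24e-05) to 0.435 and 2.07 CPM. The 4 airway basal cell markers summed to 25.2 and 15.5 CPM (day 16), 5.98 and 5.60 (day 23), 15.5 and 28.4 (day 31), 26.8 and 24.3 (day 38) and 54.3 and 43.7 (day 45). Over the 4 steps 1, 1, 0 and 1 of them were called, beside 10.9, 2.25, 15.0 and 11.2% of all genes. *TP63* fell by 2.05 on the log2 scale from day 16 to day 23 (SE 0.55, adjusted p = 0.0104). *KRT5* rose from day 23 to day 31 (fitted log2 fold change 7.05, SE 0.89, adjusted p = 2.58e-06), the week of the first rise of *MMP1*, and by 1.57 from day 38 to day 45 (SE 0.49, adjusted p = 0.0309). Without *KRT5*, also split after seeing the data, the other 3 summed to 15.0 and 14.2 CPM at day 38 and 17.4 and 15.5 at day 45. The 5 myeloid markers, led by *CD68*, went from 15.4 and 8.61 to 74.3 and 63.5 CPM, with *ITGAM* at 23.5 and 9.61 at day 45, and the leukocyte antigen *PTPRC* at 0.58 and 0. The 4 endothelial markers, led by *KDR*, summed to 16.5 to 53.9 CPM, and *PECAM1* was at 0 counts in 7 libraries. The part of these cells in the MMP and TIMP levels was not tested.

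**Figure D5:**
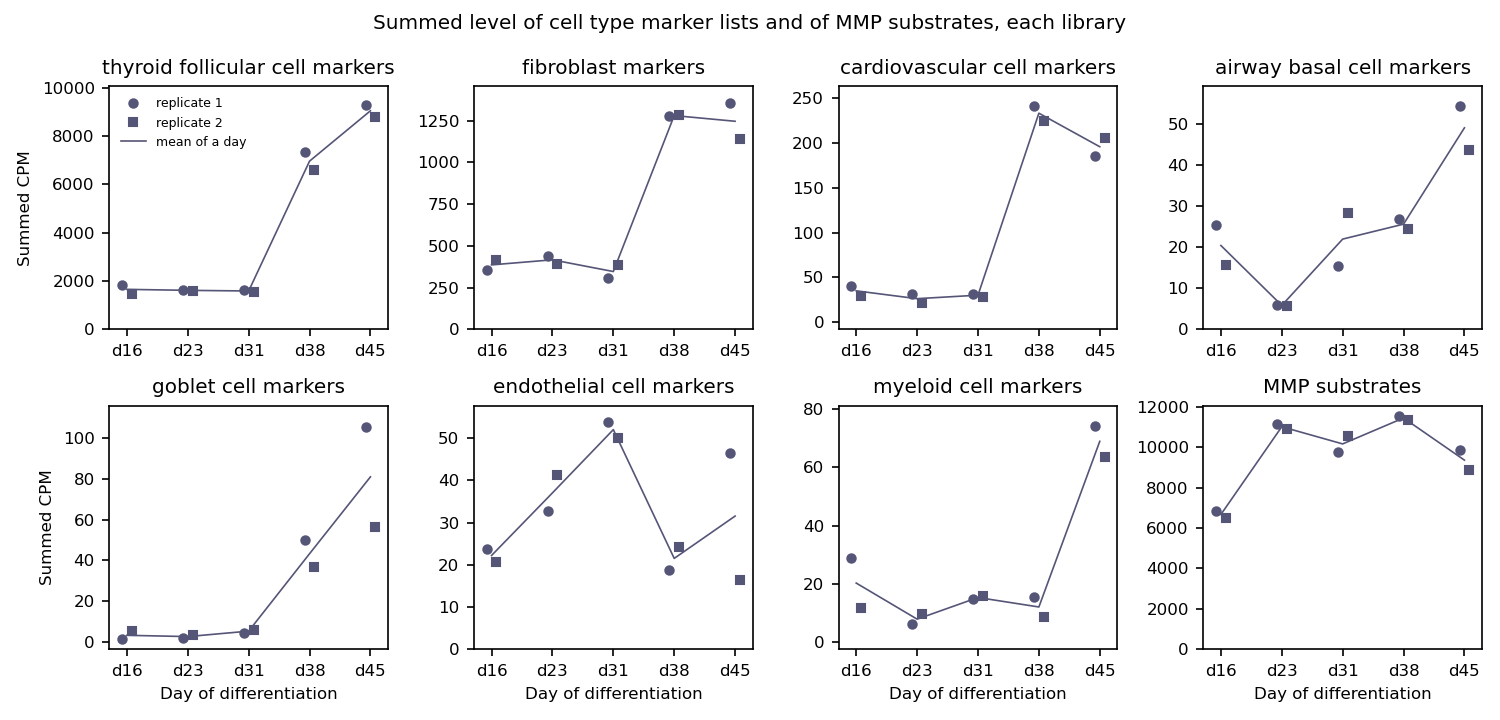
Summed CPM (y axis, its own range for each list) of 7 cell type marker lists and of the 16 MMP substrate genes in every library, by day of differentiation (x axis), with circles for replicate 1, squares for replicate 2 and a line through the day means. Thyroid, fibroblast and cardiovascular sums step up at day 38, the fibroblast sum through COL1A2 alone (the other 5 genes sum to 128 and 118 CPM there, against 154 and 173 at day 31), and the airway basal and myeloid sums are highest in both day 45 libraries.

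The genes whose pattern was most like that of each abundant member were found by Pearson r of log2 CPM over the 10 libraries among 13114 genes, as a description over points that share 5 days. *TIMP3* was nearest to *CLIC2* (r = 0.993), *CPEB4* (0.985) and *POR* (0.981). *CLIC2* went from 3.998 CPM at day 16 to 35.9 at day 45 on average, and *CPEB4* from 100.1 to 399. *MMP1* was nearest to *PLA2G4F* (0.975), *GPRC5A* (0.975) and *MIGA1* (0.971), and *PLA2G4F*, at 2.42 CPM at day 38, averaged 19.8 at day 45. *MMP15* was nearest to *PRSS8* (0.975), *PHYH* (0.958) and *PHKA2* (0.955), and *PRSS8*, the epithelial protease prostasin, dipped to 43.2 CPM at day 31 before it reached 111 at day 38. *TIMP1* was nearest to *NCAM2* (0.991), *GNAL* (0.962) and *MGAT4C* (0.959), which shared its maximum at day 38. *MMP2* was nearest to *SFRP1* (0.921), *LUZP1* (0.912) and *LRRC14* (0.909), *MMP14* to *ZNF529-AS1* (0.962), *SUMO3* (0.961) and *STK11IP* (0.949), and *TIMP2* to *ZNF503* (0.890), *ZNF416* (0.885) and *HCCS* (0.878). *MMP7*, *MMP9* and *MMP10* averaged below 5 CPM and were not compared in this way.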

How the data were processed

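Total RNA of sorted NKX2-1 GFP+ cells was amplified with the NuGEN Ovation Solo kit and sequenced in paired ends. Per the labels and the study's methods, the authors trimmed reads with Trimmomatic, aligned them to GRCh38.p13 with HISAT2 and deposited raw counts per gene from HTSeq, 1 column per library. Versions and strand setting are not given in the sources used here. Between 2.92 and 8.17% of each library was *RN7SK*, a noncoding RNA. The protocol detached cells with collagenase and dispase.

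Each day had 2 replicate libraries from distinct wells of 1 line, so p-values measure the spread between such samples. A gene needed 5 counts or more in 2 or more libraries (21014 of 28265 did) and was then fitted in edgeR 4.0.16 (R 4.3.3) by glmQLFit with TMM factors and 1 mean per day over all 10 libraries, with 5 residual degrees of freedom. The 5 comparisons and the test over all days used glmQLFTest with Benjamini-Hochberg adjustment over all tested genes at 0.05. Standard errors are the log2 fold change divided by the root of F and are approximate. CPM used TMM-scaled library sizes and lengths were GENCODE 44 exon unions. Counting intervals are exact at 95%, and a floor of 3 counts stands for 0. The fit was tested on simulated data.

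Members and lists were chosen with earlier results of these data known. All 10 members are named. From each list, genes called in a comparison with a mean of at least 5 CPM over its libraries were eligible, at most 3 in each direction, plus the 3 genes most correlated with each member averaging at least 5 CPM. Other genes are named for a level or a count only. Some listed genes enter counts and sums but are not reported here by name. Alternatives were DESeq2 1.42.0, other scaling and filters, a replicate block, only the 4 libraries compared, and each library left out. The study's cAMP-only libraries of later days were not analysed here.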

Additional observations from a re-analysis of the deposited data

How the results depend on the processing

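Each result was recomputed under DESeq2, upper-quartile factors or no scaling factors in place of TMM, filterByExpr or no filter on low counts, only the 4 libraries compared, a replicate block and a minimum log2 fold change of 1. The cause of each difference below was not tested. With a log2 fold change of at least 1 also required, the genes called were 1183, 282, 1691 and 1202 for the 4 steps and 3252 for day 45 against day 16, against 2296, 473, 3160, 2353 and 5175, and 1 member was called from day 23 to day 31 in place of 4. With only the 4 libraries compared, 1 member in place of 3 was called from day 16 to day 23 (*TIMP3*, as *TIMP1* was lost and *MMP1* had too few counts to be tested), and *TIMP1* was called from day 38 to day 45 (-0.52, adjusted p = 0.0468). Over all comparisons, 2 calls of members that could be tested were lost in that setting, *TIMP1* from day 16 to day 23 among them. Without TMM factors 33.3% of the calls from day 31 to day 38 were higher, against 58.5% with them. Members that reversed without a call on either side were *MMP15* from day 16 to day 23 (-0.025, upper-quartile factors), *TIMP1* from day 23 to day 31 (0.0012, without TMM factors), *MMP14* and *TIMP2* from day 31 to day 38 (-0.13 and -0.0028, without TMM factors) and *MMP15* from day 38 to day 45 (0.0095 in DESeq2, 0.015 without TMM factors, 0.025 with upper-quartile factors).

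The replicate numbers did not pair the libraries: deviations from the day means correlated at -0.03 to 0.02 over 10 pairs of days. With the number as a block, *MMP10* from day 31 to day 38 was no longer called (4.03, adjusted p = 0.0654), *MMP9* from day 38 to day 45 turned to -0.31, and no other member's call changed.

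Without 1 library at a time, the lone sample of a day being assumed to vary like the others, the genes called ranged from 1350 to 2149, 206 to 288, 1764 to 2193, 1166 to 1629 and 3969 to 4492 in the 5 comparisons, and the members called from 1 to 3, 1 to 2, 4 to 6, 2 to 2 and 4 to 6. Members whose log2 fold change crossed 0 ranged as follows. From day 16 to day 23 *MMP10* lay between -0.24 and 0.10, *MMP14* between -0.057 and 0.68 and *MMP15* between -0.16 and 0.21. For day 31 against day 23 *MMP7* lay between -0.62 and 3.999, *MMP9* between -2.30 and 3.66 and *TIMP1* between -0.26 and 0.18. At day 38 against day 31 *MMP14* lay between -0.068 and 0.23. For day 45 against day 38 *MMP9* lay between -6.41 and 1.95, *MMP10* between -1.88 and 2.40 and *MMP15* between -0.13 and 0.070. Against day 16, day 45 gave *MMP9* between -7.42 and 0.94, *MMP10* between -0.058 and 2.01 and *MMP14* between -0.56 and 0.16.

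Divided by the longest coding transcript instead of the exon union, a choice made after seeing the data, the TIMP share of the summed level was 52.4, 65.0, 70.8, 71.3 and 74.7% over the 5 days, against 49.5, 63.6, 70.9, 71.8 and 76.6%. *MMP7*, *MMP9* and *MMP10* never exceeded 101 counts in a library, and the 2 libraries of a day were as far apart as 0 and 44 counts (*MMP9*, day 45) and 77 and 5 (*MMP10*, day 38).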
